A study of Homo sapiens with 6 samples.

Results

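The comparison was between culture experiment 2 and culture experiment 1 of a study on HT29-tsp53 cells, taken as the 3 arrays whose titles end in 2 against the 3 whose titles end in 1. These 6 arrays are all of the series, so each of its 3 conditions had 1 array per experiment, and every array of experiment 2 was set against the array of experiment 1 in the same condition. HT29-tsp53 is a human colorectal adenocarcinoma line that carries a transgene for the murine V135A form of p53, a temperature-sensitive protein that is inactive at the restrictive temperature. All 6 cultures carried the transgene, and no culture without it was used. The groups were p53 off (control cells kept at the restrictive temperature), p53 on (16 h at 32 °C) and p53 on then off (the same 16 h and then 6 h of recovery). The labels give the restrictive temperature as 38 °C in some fields and as 37 °C in others, and both experiments have the same entries. Total RNA was labelled and hybridised to Affymetrix Human Gene 1.0 ST arrays. The only record that separates the experiments is their number. Culture, RNA extraction, labelling and hybridisation therefore cannot be told apart as the source of any difference below. The p-values set the mean of 3 matched differences against their scatter over the pairs. That scatter was moderated by limma toward all genes tested, with 6.7 prior and 2 residual degrees of freedom. The p-values do not measure the spread between independent cultures, since each experiment was carried out once.

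A proliferating epithelial cell spends much of its transcription on a core of abundant messages. Ribosomal protein genes supply the cytosolic ribosome, nuclear genes supply most subunits of the mitochondrial respiratory chain and the whole protein part of the mitochondrial ribosome, and proteasome genes supply the machine that degrades tagged proteins. Replication-dependent histone genes are intronless, lie in clusters, are expressed in S phase, and make messages that end in a stem-loop instead of a poly(A) tail. These programs, together with lists for the cell cycle, stress, signalling and intestinal identity, were followed across the experiments.

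By list means the arrays matched the labelled cell type, though single markers did not all do so. All 12 markers of colorectal epithelium were above the dim limit as means over the 6 arrays (log2 3.62, the signal under which the lowest 25% of genes fell), and their mean log2 signal per array was 8.40 to 8.55 in experiment 1 and 8.01 to 8.21 in experiment 2. For fibroblast markers 5 of 9 were above the limit, with mean log2 signals of 3.45 to 3.58 and 3.54 to 3.64. For leukocyte markers 4 of 8 were above it (4.68 to 4.88 and 4.70 to 4.82), and for endothelial markers 3 of 6 (3.65 to 3.87 and 3.80 to 4.06). The leukocyte marker LYZ was bright, at 11.45, 11.52 and 11.39 in experiment 1 and 10.81, 11.06 and 11.02 in experiment 2. The epithelial marker GPA33 was under the dim limit in experiment 1, at 3.45, 3.35 and 3.11. No marker of these last 3 cell types was called between the experiments. Array medians lay between log2 5.24 and 5.31, and correlations between arrays over genes were 0.911 to 0.975.

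Of 14025 genes tested, 1394 (9.94%) were called lower and 382 (2.72%) were called higher in experiment 2, at an adjusted p under 0.05 in limma with Benjamini-Hochberg adjustment. All 1776 called genes (12.7%) had the same sign in each of the 3 conditions, which a call on 3 matched differences makes likely. Larger differences were mostly in 1 direction: 390 called genes (2.78%) were at least 2-fold lower in experiment 2, and 26 (0.185%) were at least 2-fold higher. Over all genes tested, whether called or not, 4042 (28.8%) were below experiment 1 in all 3 conditions and 2807 (20%) were above it. The median difference over all genes tested was -0.02, and the lower side had the longer tail. Whether there was also a general shift cannot be judged, since the normalization behind the deposited values is not known. That split depended on the scaling of the arrays. Lower genes made up 78.5% of the calls as deposited, 64.3% after quantile normalization (1003 lower, 558 higher) and 69.0% after cyclic loess (1146 lower, 515 higher).

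The response to p53 is given beside this difference, but the counts cannot be compared directly. The p53 comparison rests on 2 arrays per condition, and the experiment comparison on 3 arrays per experiment with condition in the fit. Without the condition term the experiment comparison called 37 genes higher and 393 lower. In the same arrays, 126 genes were called higher and 82 lower in p53 on than in p53 off when the experiment number was left out of the fit. With that number entered as a replicate block, 726 genes were higher and 881 lower. The difference recurred across conditions, with correlations over genes of 0.50 between p53 off and p53 on, 0.55 between p53 off and p53 on then off, and 0.63 between p53 on and p53 on then off. These are across genes of the 6 arrays and carry no test. The standard deviation of the difference over genes was 0.439 with p53 off, 0.531 with p53 on and 0.457 after recovery.

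The 12 lowest named genes in experiment 2 were NDUFS4, TXN, IFI6, NDUFB4, SCOC, LSM3, TXNL1, IFI27, UQCRH, SF3B14, RPL39 and HIST1H2BE. Values are log2 signals in the order p53 off, p53 on, and p53 on then off. Errors are limma standard errors of the mean difference. Their variance was moderated over all genes, so they are not the scatter of 1 gene alone. TXN, thioredoxin, the small protein that reduces disulphides, stood at 10.18, 10.00 and 9.47 in experiment 1 and at 7.40, 6.62 and 6.55 in experiment 2, which made it 8.16-fold lower (difference -3.03 ± 0.16, adjusted p = 0.000119). NDUFS4, an accessory subunit of complex I, stood at 5.46, 5.70 and 5.41 and then at 2.56, 2.23 and 2.67 (difference -3.04 ± 0.17, adjusted p = 0.000119). NDUFB4, another accessory subunit of complex I, stood at 6.31, 6.65 and 6.46 and then at 3.81, 4.18 and 3.37 (difference -2.69 ± 0.17). The experiments did not overlap for any of these genes. Genes picked for large differences are likely not to overlap, here and below, and the share over all genes was not counted. All NDUFS4 values of experiment 2, with 1 NDUFB4 value, were under the dim limit. Of the 1394 genes called lower, 14 had all 3 values of experiment 2 under that limit, and 19 of the 382 called higher had all 3 values of experiment 1 under it, so the sizes of these differences rest on dim signals. LSM3, part of the Lsm rings that bind U6 RNA and decapping substrates, stood at 8.15, 8.03 and 7.81 and then at 5.71, 5.61 and 5.18 (5.65-fold lower). SF3B14, now named SF3B6, a subunit of the U2 snRNP that contacts the branch point, stood at 8.34, 8.51 and 8.54 and then at 6.29, 6.05 and 6.23 (4.84-fold lower). TXNL1, a thioredoxin-like protein found with the proteasome, was 5.28-fold lower, and SCOC, a Golgi coiled-coil protein, was 6.03-fold lower, with 1 value of experiment 2 under the dim limit.

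The size of these values depended on how probe sets were combined. The array reports exon-level probe sets, and each gene was summarised per array by the middle value of its probe sets. With their mean instead, the difference was -1.54 for TXN, -1.60 for NDUFS4, -1.05 for NDUFB4, -1.04 for TXNL1 and -1.73 for SCOC, against -2.41 for LSM3 and -2.00 for SF3B14. Of probe sets above the dim limit, 6 of 7 for TXN, 3 of 3 for NDUFS4, 2 of 4 for NDUFB4, 8 of 10 for TXNL1, 3 of 3 for LSM3 and 6 of 6 for SF3B14 were lower in all 3 conditions. For these 6 genes no such probe set was higher in all 3. The 12 lowest named genes were each called in all 3 fits that left out 1 condition and with the mean of probe sets.

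**Figure D1:**
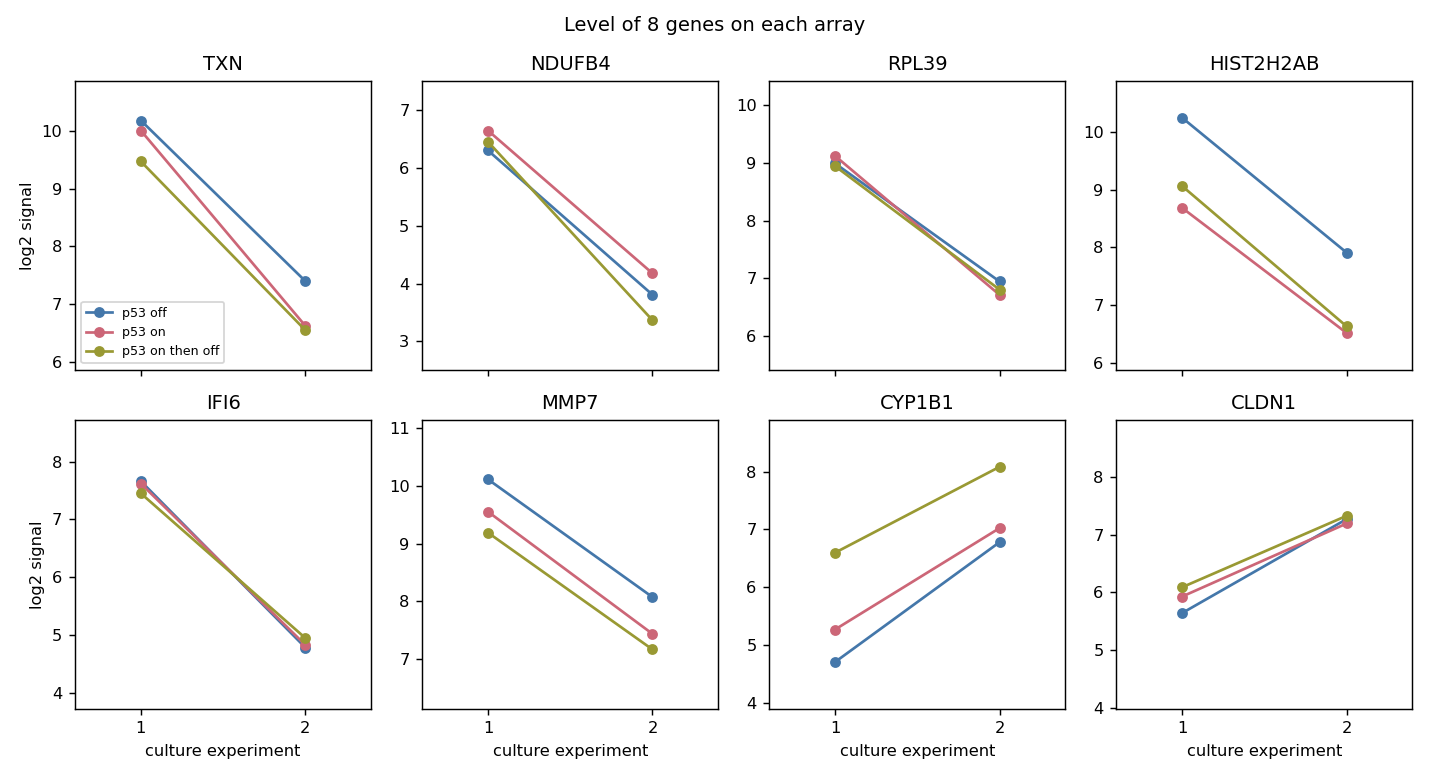
Log2 signal (y axis) of 8 genes on each of the 6 arrays, by culture experiment (x axis). Each line joins the 2 arrays of 1 condition, and each panel spans the same number of log2 units. TXN, NDUFB4, RPL39, HIST2H2AB, IFI6 and MMP7 are lower and CYP1B1 and CLDN1 higher in experiment 2. The 8 genes were picked among called genes with large differences. That the experiments do not overlap in any panel follows largely from this choice, and the share over all genes was not counted.

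**Figure D2:**
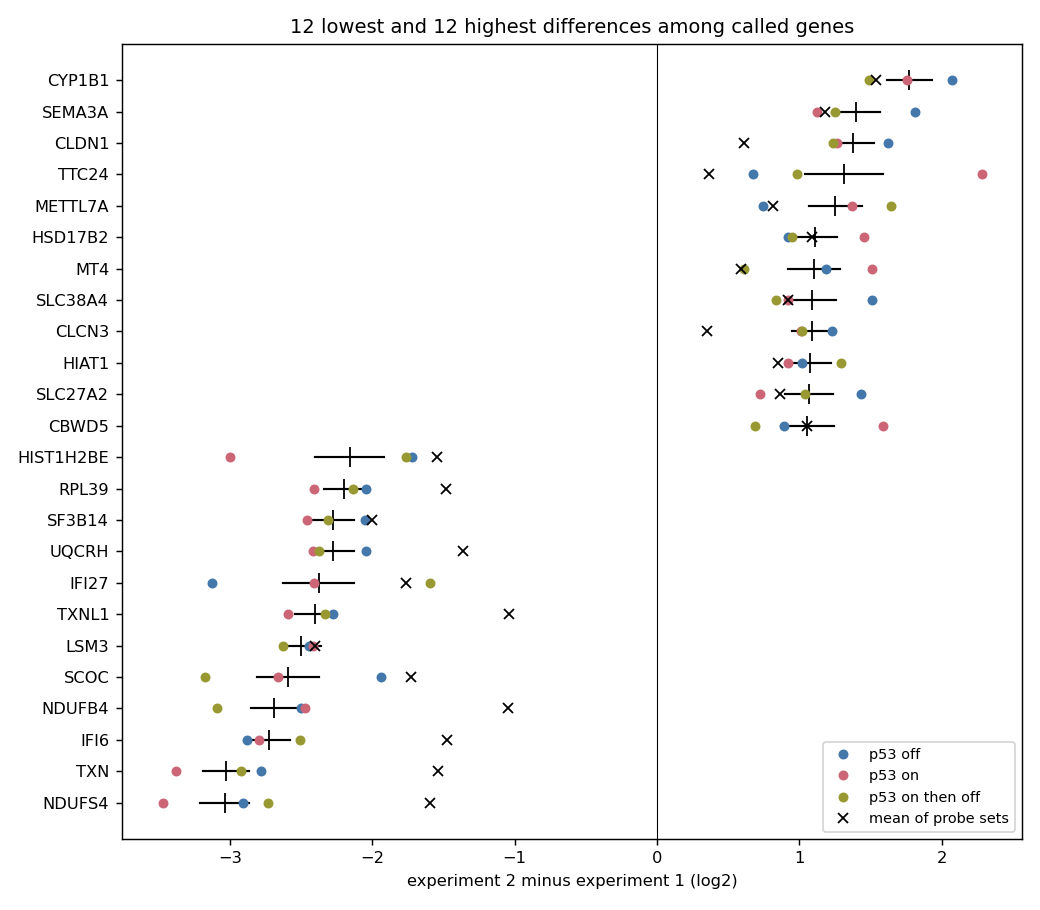
Difference between experiments (log2, x axis) for the 12 lowest and 12 highest named genes (y axis). Coloured points are the 3 conditions, the vertical tick and bar are the mean and its limma standard error, and the cross is the mean with probe sets averaged instead of taken at their median. The genes were picked among called genes with the same sign in all 3 conditions. By this choice, all points of the lower 12 are left of 0 and all points of the upper 12 are right of 0. Most crosses are nearer to 0 than the ticks.

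Replication-dependent histones were the list with the largest share of lower genes. Of 47 tested, 33 were called lower and none higher, with a median difference of -0.91, against 9.94% of all genes lower and a median of -0.02. A further 6 measured histone genes were under the dim limit. The lower genes came from every class: 4 of 4 for the linker histone H1, 8 of 11 for H2A, 7 of 13 for H2B, 7 of 10 for H3 and 7 of 9 for H4. HIST2H2AB, an H2A gene of the chromosome 1 cluster measured by 2 probe sets, stood at 10.25, 8.69 and 9.06 in experiment 1 and at 7.91, 6.52 and 6.63 in experiment 2, 4.96-fold lower (difference -2.31 ± 0.14, adjusted p = 0.000151). HIST1H2BE stood at 6.92, 5.93 and 4.95 and then at 5.21, 2.94 and 3.19, with 2 values under the dim limit (difference -2.16 ± 0.24), and HIST1H2BF was 4.42-fold lower. For HIST2H2AB the experiments did not overlap, while the highest HIST1H2BE value of experiment 2 was above the lowest of experiment 1. Within each experiment the histone list was also lower with p53 on than off, with median changes of -0.89 in experiment 1 and -0.72 in experiment 2. Not every histone gene differed: HIST2H2BE had 5.99, 6.36 and 5.98 against 5.95, 7.03 and 5.98, a difference of 0.21 ± 0.17 (adjusted p = 0.47). HIST2H2BE was picked after its values were seen, as the listed histone with the highest difference. Histone genes of a class are near-identical in sequence, so single genes are less certain than the class counts.

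The stretch upstream of 3 histone genes is shown to set a pair of genes that were lower beside 1 that was not. The octamer was searched as ATTTGCAT and, for the other strand, as ATGCAAAT. The box bound by NF-Y was searched as CCAAT and its reverse complement ATTGG, and both were counted as CCAAT. For the TATA box the letters were TATAAA, and for the other strand its reverse complement, TTTATA. Matches are in capitals. The motifs do not overlap one another in these 3 windows. Each line gives the 250 bases before the RefSeq start on GRCh38.p14, read 5′ to 3′ along the gene. HIST2H2AB (now H2AC21) is at chr1:149887966-149888215 on the minus strand and HIST1H2BH (now H2BC9) at chr6:26251364-26251613 on the plus strand. HIST2H2BE (now H2BC21), the gene with no call, is at chr1:149886683-149886932 on the minus strand.
HIST2H2AB: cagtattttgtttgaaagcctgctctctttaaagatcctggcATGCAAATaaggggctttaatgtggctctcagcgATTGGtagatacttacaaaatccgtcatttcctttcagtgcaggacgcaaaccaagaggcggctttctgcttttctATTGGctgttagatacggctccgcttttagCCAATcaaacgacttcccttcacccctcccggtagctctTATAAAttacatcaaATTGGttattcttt
HIST1H2BH: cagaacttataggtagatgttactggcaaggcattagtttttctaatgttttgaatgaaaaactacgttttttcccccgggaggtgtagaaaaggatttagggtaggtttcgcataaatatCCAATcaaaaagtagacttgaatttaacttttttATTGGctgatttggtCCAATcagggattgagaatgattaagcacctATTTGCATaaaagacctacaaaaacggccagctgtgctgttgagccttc
HIST2H2BE: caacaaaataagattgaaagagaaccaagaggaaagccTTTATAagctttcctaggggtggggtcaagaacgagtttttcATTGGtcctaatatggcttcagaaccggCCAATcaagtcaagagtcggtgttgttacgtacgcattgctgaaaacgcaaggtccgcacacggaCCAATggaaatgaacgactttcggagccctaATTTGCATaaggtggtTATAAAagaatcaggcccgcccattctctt
HIST1H2BH stood at 6.63, 5.44 and 6.05 in experiment 1 and at 5.04, 4.70 and 4.33 in experiment 2, 2.55-fold lower (difference -1.35 ± 0.20, adjusted p = 0.00428). All 3 windows held the octamer and CCAAT, and both HIST2H2AB and HIST2H2BE held TATAAA or its reverse. Over the histone genes with a RefSeq promoter, the octamer was in 8 of 10 H2A, 6 of 9 H2B, 1 of 8 H3, 0 of 7 H4 and 0 of 4 H1 genes, and in 1.66% of all 27305 promoters. CCAAT was in 33.0% and TATAAA in 11.1% of all promoters. Of histone genes called lower, 9 of 26 held the octamer, 22 of 26 CCAAT and 19 of 26 TATAAA. Of those not called, 6 of 12 held the octamer, 11 of 12 CCAAT and 7 of 12 TATAAA. A match is a description of letters in these windows and not of a bound site.

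Genes for cytosolic ribosomal proteins were lower in a like manner. Of 69 tested, 41 (59.4%, against 9.94% of all genes) were called lower and none higher, with a median difference of -0.65. Both subunits took part, with 23 of 42 large-subunit and 18 of 27 small-subunit genes lower. RPL39, a small protein of the exit tunnel, stood at 8.99, 9.12 and 8.94 in experiment 1 and at 6.95, 6.71 and 6.80 in experiment 2, 4.58-fold lower (difference -2.20 ± 0.15, adjusted p = 0.000179). RPL38 stood at 10.83, 11.19 and 11.12 and then at 9.10, 9.05 and 9.24, 3.77-fold lower, and RPL31 was 3.69-fold lower. For RPL39 and RPL38 every value of experiment 2 was below every value of experiment 1. With probe sets averaged the differences were -1.48 for RPL39, -1.43 for RPL38 and -1.36 for RPL31. The list was not uniform, since its highest member differed by 0.59 and 59 of the 69 were below 0. RPL4, picked after its values were seen, had 9.59, 9.97 and 10.12 against 9.83, 10.22 and 10.41 (adjusted p = 0.256). Ribosomal protein genes have many processed pseudogenes with near-identical sequence, so signals of single genes are uncertain to that extent.

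Nuclear genes of the respiratory chain were lower in part. Of 73 tested, 32 (43.8%, against 9.94% of all genes) were called lower and none higher, with a median of -0.46. In all 3 conditions 56 were below 0, against 28.8% of all genes. Complex IV, cytochrome c oxidase, had the largest share, with 8 of 10 genes lower and a median of -1.16. Complex I had 16 of 36 lower, made up of 2 of 6 core subunits and 14 of 30 accessory subunits. Complex II had 2 of 4, complex III 2 of 7 and ATP synthase 3 of 15. UQCRH, the hinge protein of complex III, stood at 7.88, 8.25 and 7.97 in experiment 1 and at 5.83, 5.83 and 5.60 in experiment 2, 4.85-fold lower (difference -2.28 ± 0.15, adjusted p = 0.000178, and -1.36 with probe sets averaged). COX7C, a small subunit of complex IV picked here as the lowest of that complex, stood at 8.21, 8.62 and 8.22 and then at 6.11, 6.23 and 6.51 (difference -2.07 ± 0.17, adjusted p = 0.000451), and 7 of its 7 probe sets were lower in all 3 conditions. Neither gene overlapped between the experiments. Complexes were not tested against each other.

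The mitochondrial ribosome, which makes the few respiratory subunits encoded in mitochondria, followed with smaller shifts. Of 75 genes tested, 26 (34.7%, against 9.94% of all genes) were called lower and none higher, with a median of -0.37. The lower genes were 17 of 46 large-subunit and 9 of 29 small-subunit genes. MRPL13 was 3.72-fold lower (difference -1.89 ± 0.16, adjusted p = 0.000506, and -1.81 with probe sets averaged). MRPL21 was 3.61-fold and MRPL1 2.96-fold lower, with -1.10 and -0.94 when probe sets were averaged.

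Proteasome genes were lower in part, and their share of higher calls was near that of all genes. Of 31 tested, 11 (35.5%) were called lower and 1 (3.23%) higher, with a median of -0.37, against 9.94% and 2.72% of all genes. The catalytic 20S core had 6 of 14 lower, and the 19S regulatory particle 5 of 17. PSMA3, an alpha-ring subunit, stood at 8.79, 8.53 and 8.18 in experiment 1 and at 6.81, 6.06 and 6.37 in experiment 2, 4.25-fold lower (difference -2.09 ± 0.17, adjusted p = 0.000451), with 11 of 12 probe sets lower in all 3 conditions. PSMC6, a 19S ATPase, was 2.90-fold and PSMA2, another alpha-ring subunit, 2.80-fold lower. The single higher subunit, the 19S ATPase PSMC1, differed by 0.58 ± 0.14 (adjusted p = 0.0283), which was not called in any fit that left out 1 condition or with probe sets averaged (0.11).

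RNA processing genes were lower in smaller shares. Ribosome biogenesis had 11 of 45 genes lower and none higher, with a median of -0.26: UTP18, of the small-subunit processome, was 3.56-fold lower (difference -1.83 ± 0.16, adjusted p = 0.000532), NPM1, the nucleolar chaperone nucleophosmin, 2.97-fold, and GNL3, nucleostemin, 2.68-fold. The SR and hnRNP splicing factors had 8 of 29 lower and none higher, with a median of -0.31, led by SFRS7, now named SRSF7, at 2.31-fold (adjusted p = 0.00161), TRA2B at 2.21-fold and TRA2A at 1.77-fold. The mRNA decay machinery had 3 of 46 lower, a share of 6.52%, which is below the 9.94% of all genes. These were CNOT8, a deadenylase of the CCR4-NOT complex (difference -1.10 ± 0.14, adjusted p = 0.0024), and the exosome subunits EXOSC3 (-0.89) and EXOSC2 (-0.51). With probe sets averaged CNOT8 differed by -0.54, and 6 of its 12 probe sets above the dim limit were lower in all 3 conditions. EXOSC2 was called in no fit that left out 1 condition. The median of the mRNA decay list was -0.08 as deposited, and turned positive after quantile or loess scaling.

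**Figure D3:**
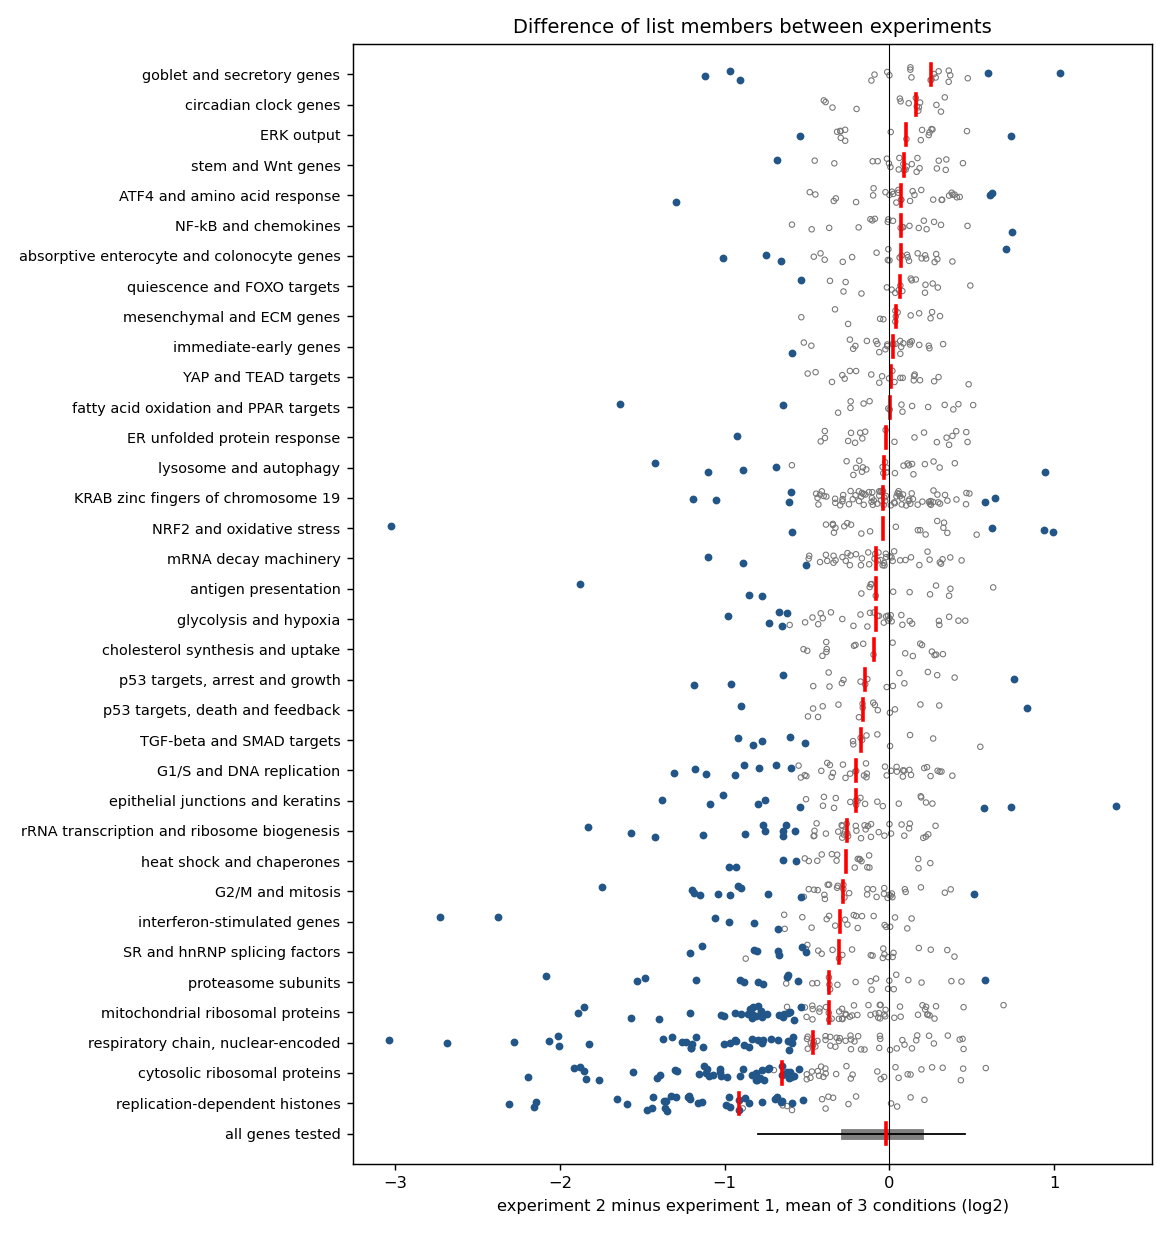
Difference between experiments for each tested member (points, log2, mean of 3 conditions, x axis) of the lists with at least 14 tested members (y axis). Filled points passed the adjusted p threshold, open points did not, red ticks are list medians, and the lowest line gives all genes tested as the middle 50% (thick) and middle 90% (thin). Histones, ribosomal proteins and the respiratory chain lie furthest left, while medians of most signalling and intestinal lists are near that of all genes.

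Between them, the histone, ribosome, respiratory chain and proteasome lists held 295 genes, which is 2.10% of the genes tested. They held 143 (10.3%) of the 1394 genes called lower and 67 (17.2%) of the 390 that were at least 2-fold lower. Most lower genes were therefore outside these lists, and 244 of the 1394 (17.5%) were on any program list, against 8.14% of all genes tested.

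Of 43 G1/S and replication genes, 8 (18.6%) were called lower and none higher, with a median of -0.20, against 9.94% of all genes lower and a median of -0.02. RFC4, a clamp loader subunit, was 2.47-fold lower (difference -1.31 ± 0.16, adjusted p = 0.00197). CCNE2, cyclin E2, was 2.26-fold and GINS1, of the replicative helicase, 2.16-fold lower. Of 41 G2/M and mitosis genes, 10 (24.4%) were lower and 1 was higher, with a median of -0.28. CKS2, the small partner of cyclin-dependent kinases, stood at 8.79, 7.87 and 8.04 in experiment 1 and at 7.06, 6.00 and 6.42 in experiment 2, 3.35-fold lower (difference -1.74 ± 0.14, adjusted p = 0.000451). CDC2, the gene of CDK1, was 2.30-fold lower, and PTTG1, securin, 2.27-fold. With probe sets averaged PTTG1 differed by -0.64. Of its 8 probe sets above the dim limit, 3 were lower and 1 was higher in all 3 conditions. Values of CKS2 did not overlap between the experiments. The higher gene, the kinesin KIF2C, differed by 0.51 ± 0.14 (adjusted p = 0.0484) and was called in no fit that left out 1 condition. MKI67, picked after its values were seen as the usual marker of cycling cells, had 9.54, 8.19 and 7.91 against 9.27, 8.50 and 7.91 (difference 0.01 ± 0.16, adjusted p = 0.966). In bulk RNA, fewer cells in a phase and less RNA per cell cannot be told apart.

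A few interferon-stimulated genes were among the lowest of all. Of 26 tested, 6 (23.1%, against 9.94% of all genes) were called lower and none higher, with a median of -0.30, and a further 11 were under the dim limit. IFI6, an interferon-induced mitochondrial protein, stood at 7.66, 7.62 and 7.45 in experiment 1 and at 4.78, 4.82 and 4.94 in experiment 2, 6.62-fold lower (difference -2.73 ± 0.15, adjusted p = 0.000119, and -1.47 with probe sets averaged). IFI27 stood at 6.83, 6.34 and 5.58 and then at 3.70, 3.93 and 3.99, 5.20-fold lower (difference -2.38 ± 0.25). IFIH1, the cytosolic RNA sensor MDA5, was called lower with all 3 values of experiment 2 under the dim limit, and the median of its probe sets' own differences was -0.07. The experiments did not overlap for IFI6 or IFI27. The IFI27 values of experiment 1 were lowest after recovery and those of experiment 2 with p53 off, an ordering that 1 array per condition does not allow to be tested. Other standard members differed little: ISG15 by -0.03 (adjusted p = 0.933) and MX1 by -0.27 (adjusted p = 0.352), both picked after their values were seen. Antigen presentation genes had 3 of 15 (20%) lower and none higher, with a list median that changed sign with the processing. B2M, the invariant chain of class I molecules, stood at 8.65, 8.56 and 8.19 and then at 6.42, 6.88 and 6.47, 3.67-fold lower (difference -1.88 ± 0.16, adjusted p = 0.000516). HLA-B was 1.81-fold and PSMB8, an immunoproteasome subunit, 1.71-fold lower, the latter with 2 values of experiment 2 under the dim limit.

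Genes that were higher in experiment 2 were seldom on the lists: 22 of the 382 (5.76%) were on any program list, and those lists hold 8.14% of the genes tested. Among called genes with at least 3 probe sets, the largest difference was in CYP1B1, a cytochrome P450 that oxidises steroids and polycyclic compounds and is a target of the aryl hydrocarbon receptor. It stood at 4.70, 5.26 and 6.59 in experiment 1 and at 6.78, 7.02 and 8.08 in experiment 2, 3.42-fold higher (difference 1.77 ± 0.16, adjusted p = 0.000599). All 5 of its probe sets were higher in all 3 conditions. Of 9 aryl hydrocarbon receptor genes tested, 2 (22.2%, against 2.72% of all genes) were called higher and none lower. Beside CYP1B1, the other was ALDH3A1, an aldehyde dehydrogenase, at 1.70-fold (adjusted p = 0.0101). CYP1A1, the most used readout of that receptor and picked for that reason, differed by 0.00 ± 0.15 (adjusted p = 0.99). SEMA3A, a secreted guidance cue, stood at 7.12, 7.47 and 6.98 and then at 8.93, 8.60 and 8.24, 2.63-fold higher (difference 1.40 ± 0.17, adjusted p = 0.00185), with 15 of 17 probe sets higher in all 3 conditions. HSD17B2, which inactivates estradiol and testosterone, stood at 7.66, 6.15 and 6.92 and then at 8.58, 7.60 and 7.87, 2.16-fold higher (adjusted p = 0.00382), with 5 of 5 probe sets higher. SEMA3A and CYP1B1 did not overlap between the experiments, while HSD17B2 overlapped at 1 array.

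The other named higher genes were of several kinds. SLC27A2, a very-long-chain acyl-CoA synthetase and fatty acid carrier, was 2.09-fold higher, SLC38A4, an amino acid transporter, 2.13-fold, and HIAT1, a member of the major facilitator family now named SLC71A1, 2.11-fold. With probe sets averaged these differed by 0.87, 0.92 and 0.85. CLCN3, a chloride-proton exchanger of endosomes, was 2.12-fold higher, and TTC24, a tetratricopeptide repeat protein, 2.49-fold. Neither of these last 2 genes was called with probe sets averaged (0.35 for CLCN3 and 0.37 for TTC24). METTL7A, a methyltransferase of the endoplasmic reticulum now named TMT1A, was 2.38-fold higher, MT4, a metallothionein, 2.15-fold, and CBWD5, now named ZNG1E, 2.08-fold. SLC38A4, TTC24, METTL7A and MT4 each had 1 value of experiment 1 under the dim limit. CBWD5 belongs to a family of near-identical copies and its signal may be shared among them.

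Junction, keratin and intestinal genes included calls in both directions. CLDN1, a tight junction claudin, stood at 5.64, 5.93 and 6.09 in experiment 1 and at 7.27, 7.20 and 7.33 in experiment 2, 2.60-fold higher (difference 1.38 ± 0.15, adjusted p = 0.00112, and 0.61 with probe sets averaged). EPCAM, the epithelial adhesion molecule, stood at 10.17, 10.10 and 9.80 and then at 8.79, 8.51 and 8.62, 2.60-fold lower (difference -1.38 ± 0.15, adjusted p = 0.00109). Neither gene overlapped between the experiments. Of 27 junction and keratin genes, 3 (11.1%) were higher and 6 (22.2%) lower, against 2.72% and 9.94% of all genes. PKP2, a plakophilin of desmosomes, differed by 0.74 and TJP3, a tight junction scaffold, by 0.57. The keratins KRT19 and KRT20 were 2.13-fold and 2.02-fold lower. TJP3 was called in no fit that left out 1 condition. MMP7, matrilysin, which is made by Paneth cells and by colorectal tumour cells, stood at 10.11, 9.55 and 9.19 and then at 8.07, 7.44 and 7.17, 4.17-fold lower (difference -2.06 ± 0.14, adjusted p = 0.000179), with 6 of 6 probe sets lower. It was the single call among 4 Paneth genes above the dim limit.

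Goblet and secretory genes had 2 of 21 higher (9.52%) and 3 lower (14.3%), with a median of 0.25, against 2.72% and 9.94% of all genes. MUC13, a membrane mucin, stood at 5.97, 6.40 and 5.54 in experiment 1 and at 7.07, 7.76 and 6.18 in experiment 2, 2.05-fold higher (difference 1.04 ± 0.17, adjusted p = 0.00627), with 10 of 11 probe sets higher and an overlap of the 2 experiments at their nearest arrays. GFI1, a transcription factor of secretory cells, differed by 0.60 (0.20 with probe sets averaged, not called). SPINK1, a secreted trypsin inhibitor, was 2.18-fold lower, AGR2, a disulphide isomerase of mucin folding, 1.95-fold and TFF1, a trefoil peptide, 1.88-fold. AGR2 was not called with probe sets averaged (-0.22). Absorptive genes had 1 of 26 higher, CEACAM1 at 1.63-fold, and 3 lower, which were KRT20, DPP4 at 1.68-fold and CEACAM6 at 1.58-fold, and these shares of 3.85% and 11.5% were near those of all genes. Stem and Wnt genes had 1 of 23 lower, the adhesion receptor CD44 (difference -0.68 ± 0.17), and none higher, and no enteroendocrine gene of 6 was called, with PYY nearest (0.57, adjusted p = 0.0754). Of the 12 epithelial markers, 4 were called lower and 1 higher, GPA33 (difference 0.70), whose 3 values in experiment 1 were all under the dim limit.

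Stress and metabolic lists are to be read against the 9.94% of all genes called lower and the 2.72% called higher. NRF2 and oxidative stress genes had 2 of 24 lower, TXN and the peroxiredoxin PRDX1 (-0.59), and 3 higher, the aldo-keto reductases AKR1C2 (0.99) and AKR1C3 (0.94) and the cystine carrier SLC7A11 (0.62). AKR1C2 and AKR1C3 are close copies of each other, and PRDX1 was called in no fit that left out 1 condition. ATF4 and amino acid genes had 2 of 32 higher, SLC7A11 and PHGDH (0.61), the entry enzyme of serine synthesis, and 1 lower, ATF4 itself at 2.45-fold. For ATF4, 1 of 3 probe sets was lower in all 3 conditions, and the median of its probe sets' own differences was 0.02. Heat shock genes had 4 of 22 lower, led by DNAJA1 (-0.97), HSPE1 (-0.93) and CHORDC1 (-0.65). The cytosolic chaperonin had CCT8 (-0.86) and CCT3 (-0.58) lower and TCP1 (0.73) higher of 8, and CCT3 was called in no fit that left out 1 condition. The unfolded protein response list had 1 of 21 lower, SEC61B (-0.93). Glycolysis and hypoxia genes had 5 of 36 lower, led by TPI1 (-0.98), ENO2 (-0.73) and CA9 (-0.67), and a median that changed sign with the scaling, and fatty acid oxidation 2 of 17, HADHB (-1.64) and ACADM (-0.65). Lysosome and autophagy genes had 4 of 28 lower, led by ATP6V0E1 (-1.42), NPC2 (-1.10) and CTSZ (-0.89), and MAP1LC3B (0.95) higher. With probe sets averaged MAP1LC3B differed by 0.22, and 2 of its 4 probe sets above the dim limit were higher in all 3 conditions.

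No gene was called among 19 of cholesterol synthesis (CYP51A1 nearest, adjusted p = 0.078), 12 of fatty acid synthesis (THRSP, 0.105), 11 metallothionein and zinc genes (SLC30A10, 0.0518), 22 YAP and TEAD targets (TGFB2, 0.0571), 14 mesenchymal genes (LOXL2, 0.101) or 15 circadian clock genes (TEF, 0.119), each an adjusted p from limma. At an unadjusted limma p under 0.05 there were 3896 of the 14025 genes tested. Over all genes tested 12.7% were called, so at that share lists of 11 to 22 genes would hold few calls. A p above the threshold does not show equal levels, since 3 matched pairs limit the precision.

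Of 15 TGF-beta and SMAD targets, 5 (33.3%, against 9.94% of all genes) were lower and none higher. They were led by SKIL (-0.92), ID1 (-0.83) and ID2 (-0.78), the last 2 being inhibitors of bHLH factors. Over the settings run, leaving aside the fit without the condition term, 2 to 5 members were called lower. The list median lay between -0.24 and -0.07 over the settings. ID2 was called in 1 of the 3 fits that left out 1 condition. The ERK output, NF-kB, immediate-early and quiescence lists had at most 1 call in each direction. ERK output genes had ETV4 (0.74) higher and CCND1, cyclin D1 (-0.54), lower of 17. NF-kB and chemokine genes had BIRC3 (0.74) higher of 21, immediate-early genes had SRF (-0.60) lower of 27, and quiescence and FOXO genes had CDKN1B, the p27 inhibitor (-0.54), lower of 19. CCND1, SRF and CDKN1B were called in no fit that left out 1 condition. RBM3, 1 of the 2 cold-inducible RNA-binding genes, was 1.77-fold lower (adjusted p = 0.00724). Zinc fingers of chromosome 19 had 4 of 81 lower, led by ZNF611, ZNF551 and ZNF419, and 2 higher, ZNF614 and ZNF331. Those shares, 4.94% and 2.47%, were below those of all genes. ZNF611 was under the dim limit on all 3 arrays of experiment 2, none of its 3 probe sets above that limit was lower in all conditions, and the median of its probe sets' own differences was 0.42. ZNF331 was under the limit on all 3 arrays of experiment 1, had a median of probe set differences of -0.13, and was called in no fit that left out 1 condition. Among 12 genes often used as references, B2M and TFRC were lower and none was higher, and the list median was -0.34. TFRC was called in no fit that left out 1 condition.

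Known p53 targets responded in both experiments. Over 19 arrest and growth targets, the median rise from p53 off to p53 on was 1.85 log2 units in experiment 1 (19 above 0) and 1.55 in experiment 2 (18 above 0). Over 17 death and feedback targets it was 1.91 (16 above 0) and 1.47 (17 above 0). CDKN1A, the p21 inhibitor, changed by 3.49 and 2.92, and MDM2, the ligase that degrades p53, by 3.46 and 3.58. CCNG1, cyclin G1, changed by 2.07 and 1.11. These pairs of values come from 1 array per condition and were not tested against each other. As levels over the 3 conditions, CCNG1 was 2.28-fold lower in experiment 2 (adjusted p = 0.00598), SESN1, a stress-induced mTORC1 inhibitor, 1.95-fold and BTG1, an antiproliferative factor, 1.56-fold, while TOB1, of the same family, was higher by 0.76. TOB1 changed sign with probe sets averaged. TP53INP1 was 1.86-fold lower and TNFRSF10A, a TRAIL receptor, 1.79-fold higher, and TP53INP1, with 2 values under the dim limit in each experiment, was not called with probe sets averaged (-0.33).

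Small RNAs, seen here by probe sets within their genes, differed more often than the average gene. Of 101 small nucleolar RNAs, which guide modification and cleavage of ribosomal RNA, 31 (30.7%) were called lower and 8 (7.92%) higher. Their median was -0.19, and the shares over all genes were 9.94% and 2.72%. SNORD13, picked as the lowest of them, stood at 7.17, 7.36 and 7.13 in experiment 1 and at 5.73, 5.48 and 4.18 in experiment 2 (adjusted p = 0.00187, 1 probe set). RNU5D, a U5 spliceosomal RNA with 1 probe set, had the lowest difference as measured, at 7.18, 7.38 and 7.34 and then at 2.28, 2.63 and 2.32 (-4.89 ± 0.14, adjusted p = 1.71e-06). All 3 of its values in experiment 2 were under the dim limit, so that size is not firm. Neither RNA overlapped between the experiments. Long non-coding RNAs, by contrast, had 5 of 192 (2.6%) lower and 2 (1.04%) higher.

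Rank correlations of the difference with gene properties were weak, but the share called lower rose with signal. The share of protein-coding genes called lower was 3.96% in the dimmest of 5 equal classes by signal and 15.3% in the brightest, while the share called higher was 3.10% and 4.15%. Median signals were 8.49 and 8.10 for the large and small cytosolic ribosomal subunits, within that brightest class (from 7.37). Those of the 20S and 19S proteasome, 8.73 and 8.77, were also within it. For these lists 15.3% is a nearer comparison than 9.94%. Histone classes had lower median signals, from 5.10 for H3 to 6.59 for H1. Spearman's rho of the difference was -0.17 with mean signal, -0.05 with genomic length, and -0.03 with the number of probe sets, across 13375 genes, and 0.03 with promoter GC across 10952 genes. These are across genes, which are not independent, and carry no test. Genes of at most 1000 bp were lower where they were histones, 28 of 38, and not otherwise, 1 of 84. The share called lower was 13.2% in the class of promoter GC from 57.0% to 62.7% and 6.06% in the class from 73.7% upward. The part of signal in the list results was not tested beyond the loess fit, in which histones, ribosomal proteins, the respiratory chain, mitochondrial ribosome and proteasome kept negative medians.

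**Figure D4:**
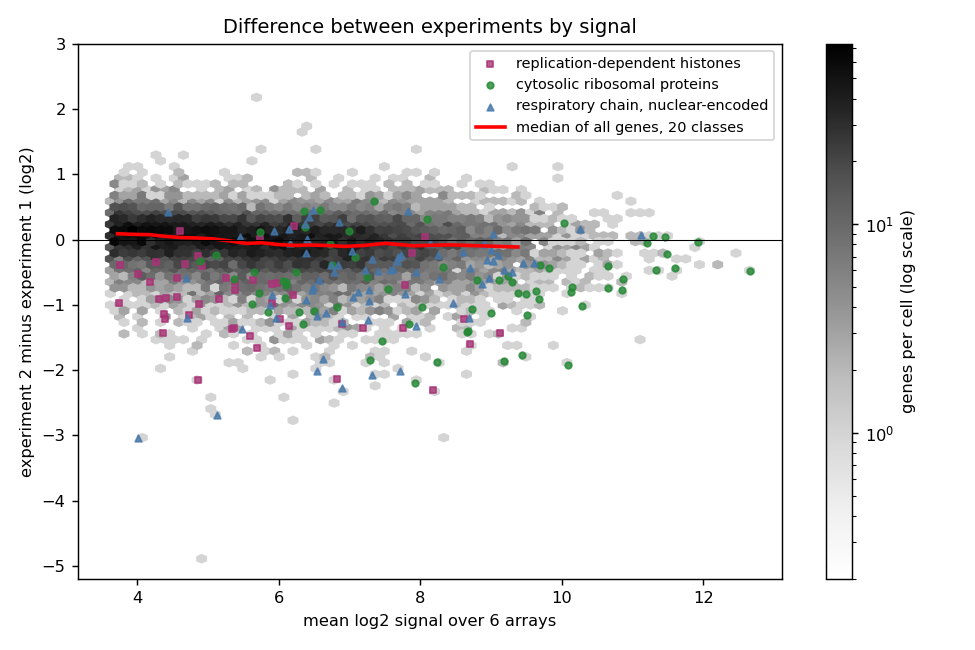
Difference between experiments (log2, y axis) against mean log2 signal over the 6 arrays (x axis) for all 14025 genes tested, shown as grey cells whose darkness is the number of genes on a log scale. Coloured points are members of 3 lists and the red line is the median of all genes in 20 classes of signal. The red line stays near 0 at every signal, while most histone, ribosomal protein and respiratory chain genes lie below it.

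The share of lower genes also differed between chromosomes. It was 4.10% on chromosome 19, 4.36% on chromosome 16 and 5.53% on chromosome 20, and 14.7% on chromosome 6, which carries the main histone cluster, and 17.9% on both chromosome 13 and chromosome 18. The share of higher genes had no like range, from 0% on chromosome 18 to 4.79% on chromosome 21. Chromosome 13 had 38 lower and 3 higher of 212 genes, and chromosome 18 had 30 and 0 of 168. These shares were not tested against each other.

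**Figure D5:**
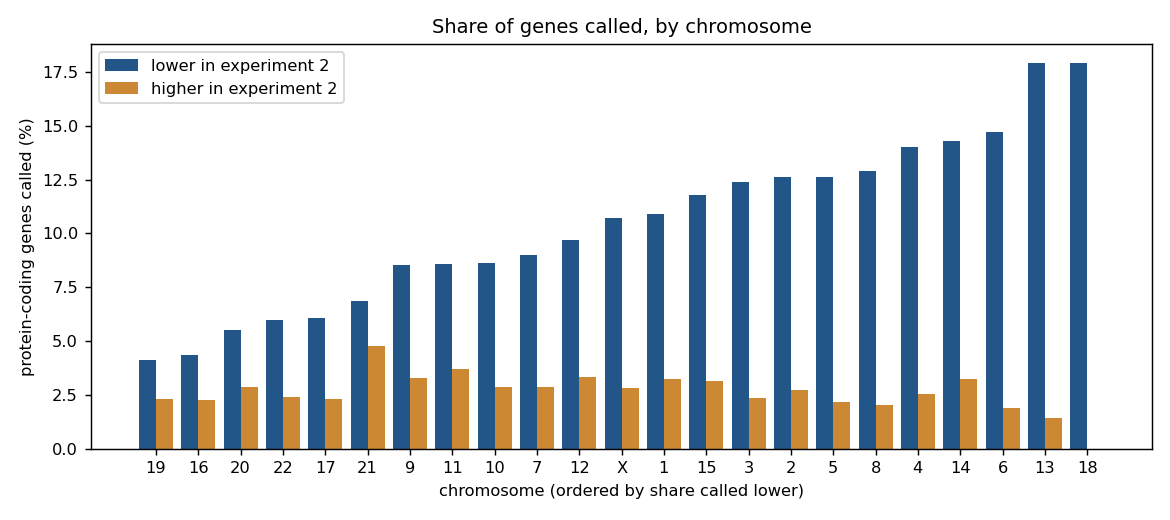
Share of protein-coding genes (%, y axis) called lower (blue) and higher (orange) in experiment 2, by chromosome (x axis, ordered by the share called lower). The share called lower runs from 4.10% on chromosome 19 to 17.9% on chromosomes 13 and 18, and the share called higher stays at or below 4.79%.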

How the data were processed

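Total RNA from 6 cultures of HT29-tsp53 cells was measured on 6 arrays, 1 per condition and experiment. The deposited table holds log2 values for exon-level probe sets (from their range, -0.85 to 13.14). Which program, background step and normalization made them is not given in the sources used here, and they were used unscaled. Probe sets numbered 257430, of which 224320 with a single gene symbol were kept, while 10159 had several symbols and 22951 had none. Genes were summarised by the median over probe sets (median 10 per gene, 1 for 1060 of 18701 genes), and genes in the lowest 25% by mean signal were left out.

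The difference was fitted with limma 3.58.1 in R 4.3.3, with condition and experiment as factors over all 6 arrays and Benjamini-Hochberg adjustment over 14025 genes. The fit was tested on simulated data. A sign permutation of 3 pairs cannot give a two-sided p under 0.25. The p53 on arrays were also set against p53 off without the experiment number and, as an alternative, with that number as a replicate block. The block was tried since arrays of 1 number deviated together (correlations 0.496, 0.551 and 0.63 across genes).

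The named genes were the 12 lowest and 12 highest differences among called genes with 1 sign in 3 conditions and at least 3 probe sets, without small RNAs, pseudogenes and uncharacterised loci, and for each list the 3 members called furthest in each direction, or the one with the smallest p. The comparison, the gene lists and the rules were chosen with earlier results of these data known, so no list is independent evidence of its direction. Lists are described by counts and medians, with no set test. Alternatives were quantile and cyclic loess scaling, the mean of probe sets, other dim limits, at least 3 probe sets, no condition term, a trended variance prior, adjustment for genomic length, single probe sets, leaving out each condition and, added after the data were seen, the median of probe set differences. Names and promoters came from RefSeq (GRCh38.p14), matched by symbol for 18601 genes. The gene for p53 is not reported here.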

Additional observations from a re-analysis of the deposited data

Results flagged for a closer look

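Condition medians of the difference between experiments had both signs in 20 of 47 lists. In 7 of them the medians passed 0.1 log2 units on both sides of 0, and these are given here; 1 array per condition does not allow a test. Values are given as p53 off, p53 on, and p53 on then off, followed by the span from lowest to highest. Immediate-early genes had -0.25, 0.20 and 0.04 (span 0.45), and stem and Wnt genes -0.10, 0.32 and 0.04 (0.43). The unfolded protein response list had 0.14, -0.12 and 0.05 (0.26), mesenchymal genes -0.14, 0.16 and -0.01 (0.30) and absorptive genes 0.00, 0.10 and -0.12 (0.22). Fibroblast markers, 5 tested genes, had -0.19, -0.02 and 0.36 (0.56), and endothelial markers, 3 tested genes, 0.30, -0.12 and 0.18 (0.42). None of these lists had more than 4 called members.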

How the results depend on the processing

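Counts of called genes moved most with the model and the gene value. Without the dim filter 215 were higher and 893 lower, without the condition term 37 and 393, and by single probe sets, where most bright ones had 1 sign in all conditions, 1248 and 2220. With the median of probe set differences, an alternative chosen after the data were seen, 724 were higher. Leaving out each condition in turn gave 187 to 320 higher and 880 to 1254 lower, and the lowest counts came without p53 on then off (187 higher) and without p53 on (880 lower). Genes at least 2-fold higher numbered 44 with quantile scaling, 40 with loess, 12 with the mean of probe sets, 14 without the condition term, 15 with the median of probe set differences, and 35 to 56 with a condition left out. Genes at least 2-fold lower numbered 247 with the mean of probe sets.

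Medians of the lists named next stayed negative but moved. With quantile scaling they were -0.16 for G2/M, -0.53 for cytosolic and -0.26 for mitochondrial ribosomal proteins, -0.34 for the respiratory chain and -0.23 for the proteasome. With loess they were -0.18 for G2/M, -0.28 for mitochondrial ribosomal proteins and -0.25 for the proteasome. The mean of probe sets gave -0.37 for G2/M and -0.24 for interferon genes, and the latter were at -0.26 without the dim filter. The median of probe set differences gave -0.31 for G2/M, -0.29 for mitochondrial ribosomal proteins and -0.21 for interferon genes. With a condition left out, G2/M reached -0.33 and interferon genes -0.34 and -0.35. Medians of 18 of 47 lists, 16 of them gene programs, lay on both sides of 0 over the settings run. Of lists whose median kept 1 sign in all 3 conditions and exceeded their SD, those that turned were mRNA decay (0.035 with quantile, 0.014 with loess), glycolysis and hypoxia (0.047 and 0.021) and Paneth genes (0.091 without the dim filter). Among named genes signs turned for TOB1 (-0.10 with the mean of probe sets) and, with the median of probe set differences, for ATF4 (0.017), SLC30A10 (-0.042), ZNF611 (0.42) and ZNF331 (-0.13). Of 115 called named genes, 82 were called in all 3 fits that left out a condition and 11 in none. Under a replicate block by experiment, the p53 on calls went from 126 and 82 to 726 higher and 881 lower. The causes were not tested.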
